A study of Mus musculus with 6 samples.

Results

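Among 24532 genes listed for mouse gastrocnemius muscle, 10 genes were picked out by symbol as enzymes that make, convert or break down nicotinamide adenine dinucleotide (NAD): *Nampt*, *Nmnat1*, *Nmnat2*, *Nmnat3*, *Nadsyn1*, *Nadk*, *Nadk2*, *Nnt*, *Nnmt* and *Cd38*. Each symbol matched 1 gene, and all 10 passed the filter on low counts that left 13801 genes to test. RNA-seq was done on the gastrocnemius, a mostly fast-twitch calf muscle, of mice labelled C57BL/6 and aged 20 weeks. The animals carried *Sirt6* flox/flox alleles in both groups, and the 3 Sirt6 KO animals carried *Myl1-Cre* in addition, whereas the 3 WT animals did not. *Myl1-Cre* is active mainly in mature type II (fast) fibers, and how far other fibers and the non-muscle cells of the tissue keep *Sirt6* was not measured in these libraries. The methods describe the mice as males. The study describes its animals as age-matched littermates, and the labels do not tie single animals to a litter.

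*Sirt6*, the targeted gene, was measured first as a check of the labels. It stood at 2.77, 2.23 and 2.88 CPM (counts scaled to library size, with TMM factors between libraries) in the WT libraries and at 7.81, 7.44 and 6.68 CPM in the libraries labelled Sirt6 KO. The level was thus higher in the libraries labelled Sirt6 KO, by 1.48 ± 0.17 on the log2 scale (SE), with an adjusted p of 0.0113 in edgeR's quasi-likelihood test. The call was lost without Sirt6 KO replicate 1 (adjusted p = 0.0606) or 3 (adjusted p = 0.065). A count over the whole gene does not separate the floxed exons from the rest, and every direction given here follows the labels. Total counts lay between 44845763 and 63016899 per library.

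NAD carries electrons in glycolysis, the citric acid cycle and respiration, and it is also used up as a substrate by sirtuins, by poly(ADP-ribose) polymerases and by CD38. Muscle rebuilds most of it from nicotinamide in the salvage pathway, where NAMPT makes nicotinamide mononucleotide and the NMNAT enzymes join that to an adenylyl group. Phosphorylation by NAD kinases gives NADP, and the mitochondrial transhydrogenase NNT passes electrons from NADH to NADP. SIRT6 is itself an NAD-dependent deacylase of the nucleus.

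At an adjusted p under 0.05, 1 of the 10 enzyme genes fell and 0 rose in Sirt6 KO muscle, by its labels. The gene that fell was *Nadk2*, the mitochondrial NAD kinase. Over all 13801 genes tested, 16.2% passed in either direction, 8.39% as lower and 7.85% as higher, so the share among the enzymes was not above the background. At an unadjusted p under 0.05, 3 of the 10 enzymes passed (*Nadk2*, *Nadsyn1* and *Nmnat1*), against 4875 of the 13801 genes tested. No enzyme gene was changed by over 2-fold with an unadjusted p under 0.05 (0 of 10), a threshold that 7.83% of all genes passed. In CPM, the WT and Sirt6 KO libraries did not overlap for the same 3 genes, and 40.0% of all genes were free of overlap. The estimated log2 fold change was below 0 for 8 of the 10 enzymes, beside 7121 of the 13801 genes tested. Among these 8, *Nnmt* and *Cd38* changed sign in other settings. The median was -0.39 for the enzymes and -0.02 for all genes tested. A difference in whole muscle cannot tell a lower RNA level per cell from fewer cells that carry it.

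**Figure D1:**
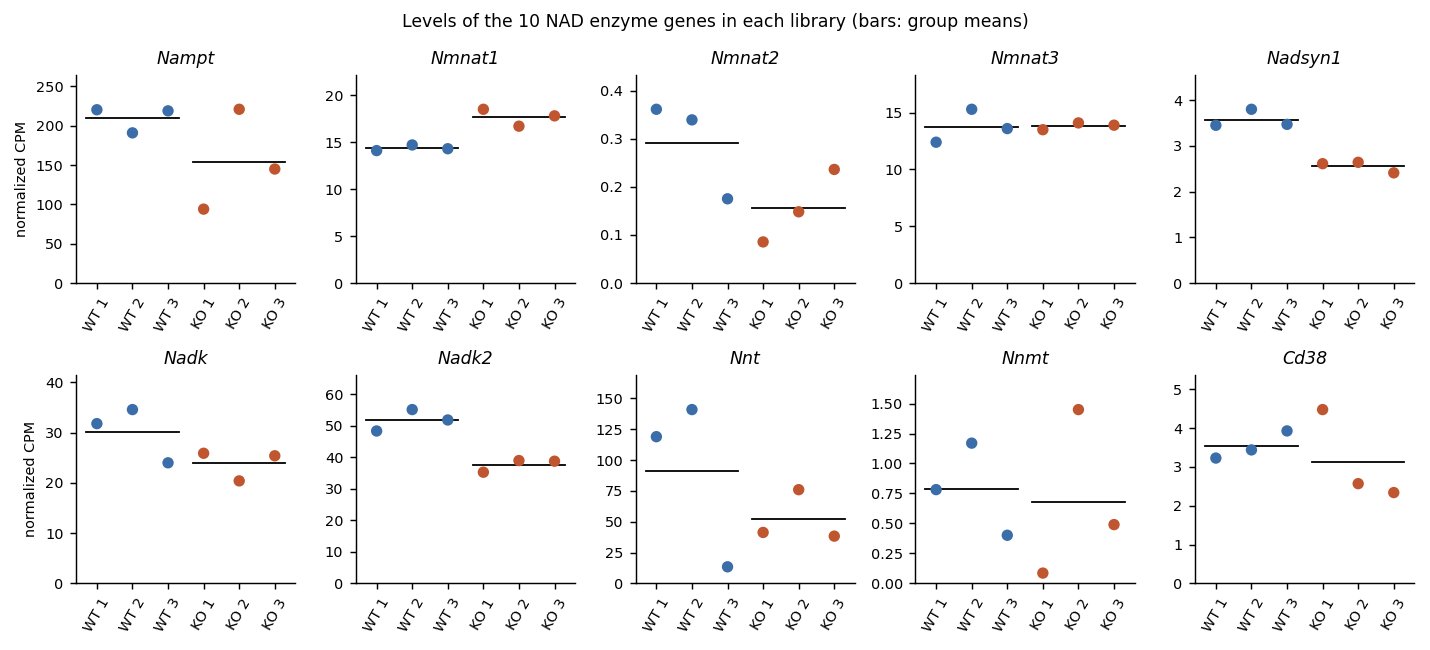
Each panel plots normalized CPM of 1 gene (vertical axis, from 0) in the 3 WT and 3 Sirt6 KO libraries, with a bar at each group mean. *Nadk2* and *Nadsyn1* sat lower and *Nmnat1* higher in every Sirt6 KO library than in any WT library, whereas *Nnt*, *Nnmt* and *Nampt* spread widely within a group.

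Because the study set the cyclic AMP response element binding protein CREB beside SIRT6, the 250 bases in front of the start site were read for the CREB-type letters TGACGTCA and their shorter part TGACG, and for CACGTG, an E-box of the clock and MYC factors, on both strands. TGACGTCA contains TGACG, so a match of the longer is also one of the shorter. RefSeq promoters on GRCm38.p6 were found for 7 of the 10 enzymes. TGACG was held by 3 of these 7 (*Nampt*, *Nmnat2* and *Nadsyn1*), CACGTG by 1 of 2 promoters of *Nadk*, and TGACGTCA by 0. The promoters of *Nampt*, the entry to salvage, and *Nadsyn1*, the last step from nicotinic acid, are shown as examples with TGACG, and that of *Sirt1*, which is not among the 10 enzymes, because its level fell and it held TGACG and CACGTG. Lines run 5′ to 3′ on the strand of the gene, and capitals mark the matched letters.
Nampt (chr12:32820085-32820334, plus strand): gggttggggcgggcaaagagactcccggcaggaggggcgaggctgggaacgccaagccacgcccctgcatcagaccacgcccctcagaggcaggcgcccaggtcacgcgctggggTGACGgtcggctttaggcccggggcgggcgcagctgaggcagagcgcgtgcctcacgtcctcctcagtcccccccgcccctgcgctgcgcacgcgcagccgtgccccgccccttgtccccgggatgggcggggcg
Nadsyn1 (chr7:143822853-143823102, minus strand): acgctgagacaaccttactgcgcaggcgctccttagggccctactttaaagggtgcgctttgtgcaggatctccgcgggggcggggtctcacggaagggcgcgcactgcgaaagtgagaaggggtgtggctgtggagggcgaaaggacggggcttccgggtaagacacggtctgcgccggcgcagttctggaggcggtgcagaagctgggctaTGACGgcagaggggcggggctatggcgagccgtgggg
Sirt1 (chr10:63339036-63339285, minus strand): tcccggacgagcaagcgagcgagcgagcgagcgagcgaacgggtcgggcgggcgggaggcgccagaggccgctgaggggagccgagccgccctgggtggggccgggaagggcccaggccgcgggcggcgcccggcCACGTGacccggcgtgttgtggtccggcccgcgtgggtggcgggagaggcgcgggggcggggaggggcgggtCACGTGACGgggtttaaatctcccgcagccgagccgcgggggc
Positions are counted back from the start site to the leftmost base of a match, which lay at -135 in *Nampt* and at -37 in *Nadsyn1*. In *Sirt1*, CACGTG began at positions -115 and -43, and a TGACG at -39 overlapped the latter of these. In the promoters not printed, TGACG lay at -245 and -133 in *Nmnat2* and CACGTG at -40 in *Nadk*. Outside the 10 enzymes, *Noct* and *Parp3* also fell, and their promoters held none of the letters searched. Nor did the promoters read for *Nmrk1*, *Nmrk2*, *Afmid*, *Sirt6*, *Me3*, *H6pd* and *Carkd*. *Sirt1* was thus picked from these genes after its level and its letters were seen. In 32851 promoters of the same length, TGACGTCA was present in 1.55%, TGACG in 17.8% and CACGTG in 6.02%. These shares count promoters, whereas the 7 above are enzymes, of which *Nmnat1* and *Nadk* had 2 promoters each. With so few promoters read, no comparison with these shares was tested. A match describes the letters only and shows no binding.

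*Nampt* (gene 59027, chr12:32820335-32853369 on GRCm38) encodes the rate-limiting enzyme of NAD salvage. Its level was 220.4, 191 and 219 CPM in the WT libraries and 94.0, 221 and 145 CPM in the Sirt6 KO libraries. Sirt6 KO replicate 2 stood at the top of the WT range while the other two fell below it, so the groups overlapped. The WT libraries differed by 1.15-fold from lowest to highest and the Sirt6 KO libraries by 2.35-fold. A range as wide within the Sirt6 KO group was seen in 8.22% of all genes. The means were 210.1 ± 16.3 and 154 ± 64.0 CPM (SD, n = 3 each), and the log2 fold change was -0.45 ± 0.28 (SE; 95% interval -1.11 to 0.21; adjusted p = 0.288). The estimate ran from -0.80 to -0.19 as single libraries were left out, and it was -0.14 (adjusted p = 0.772) after removal of the trend of fold change over GC content. The long noncoding RNA gene *Gdap10* lies within *Nampt* and was counted at 0.530 to 4.47 CPM.

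The remaining entry routes to NAD were read from a list of 12 genes for the nicotinamide riboside, nicotinic acid and tryptophan pathways. Of these, 6 passed the filter, 2 rose (*Naprt* and *Afmid*), 0 fell and 4 did not pass the test, beside 7.85% of all genes tested that rose. The median log2 fold change of the 6 was 0.74. Of the other 6, *Tdo2*, *Ido2* and *Kynu* had no count in any library and *Kmo*, *Haao* and *Acmsd* were too low to test. *Naprt*, which starts the route from nicotinic acid, stood at 3.07, 3.73 and 2.25 CPM in WT and at 6.73, 6.42 and 5.94 CPM in Sirt6 KO. Every Sirt6 KO library was above every WT library, and the level rose by 1.08 ± 0.21 on the log2 scale (adjusted p = 0.0218). The call held without WT replicate 2 or 3 and was lost in the other 4 leave-one-out fits, where the adjusted p reached 0.083. It was also lost after the trend of fold change over GC content was removed (0.82 on the log2 scale, adjusted p = 0.0593).

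*Afmid*, the kynurenine formamidase of the tryptophan route, rose from 4.17 ± 0.441 to 8.06 ± 1.04 CPM, a log2 fold change of 0.95 ± 0.17 (adjusted p = 0.017). Its call was lost without WT replicate 1 or 2 or Sirt6 KO replicate 1 or 3, at an adjusted p of up to 0.0824. *Afmid* overlaps *Tk1* in the annotation, and reads from the shared stretch may be split between them. *Qprt*, which turns quinolinate into a nicotinic acid mononucleotide, was low, at 0.233 to 0.381 CPM in the 6 libraries, with a log2 fold change of 0.37 ± 0.39 (adjusted p = 0.53).

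The nicotinamide riboside kinases make nicotinamide mononucleotide without NAMPT. *Nmrk1* stood at 4.15, 5.05 and 5.51 CPM in WT and at 6.36, 6.65 and 8.41 CPM in Sirt6 KO. The groups did not overlap, and the log2 fold change of 0.54 ± 0.18 missed the threshold (adjusted p = 0.0844). It passed without WT replicate 3 (0.64, adjusted p = 0.0438) and under DESeq2 (adjusted p = 0.0441). *Nmrk2*, the muscle form, stood at 127, 66.5 and 265 CPM in WT and at 222, 334 and 800.2 CPM in Sirt6 KO. WT replicate 3 lay above Sirt6 KO replicate 1, and the 6 libraries spanned 12.0-fold. The means were 153 ± 102 and 452 ± 306 CPM, and the log2 fold change was 1.56 ± 0.61 (95% interval 0.15 to 2.98; adjusted p = 0.114). Without WT replicate 3 it was 2.23 (adjusted p = 0.0361). *Nmrk2* lies on chromosome 10, where its end is 419.5 kb from the start of *Sirt6*, and it overlaps the long noncoding RNA gene *Atcayos*.

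*Nadsyn1* (gene 78914, chr7:143795589-143822862) encodes NAD synthetase, which amidates nicotinic acid adenine dinucleotide to NAD. It was counted 172, 179 and 199 times in the WT libraries and 153, 160 and 133 times in the Sirt6 KO libraries. On the CPM scale these were 3.45, 3.80 and 3.47 in WT and 2.61, 2.64 and 2.41 in Sirt6 KO, with no overlap. The means of 3.57 ± 0.195 and 2.56 ± 0.123 CPM gave a log2 fold change of -0.48 ± 0.17 (95% interval -0.88 to -0.08). The adjusted p was 0.0919, above the threshold, and the exact two-sided permutation test gave 0.1, the smallest that 3 libraries against 3 allow. *Naprt* and *Nadsyn1*, the first and last enzymes of the nicotinic acid route, thus had estimates of opposite sign, of which that of *Naprt* alone passed.

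*Nmnat1* (gene 66454, chr4:149467569-149485210), the nuclear NMNAT, stood at 14.1, 14.7 and 14.3 CPM in WT and at 18.5, 16.7 and 17.8 CPM in Sirt6 KO. In CPM, the Sirt6 KO libraries were all above the WT libraries, which lay within 0.06 of each other on the log2 scale. The means were 14.4 ± 0.296 and 17.7 ± 0.940 CPM, and the log2 fold change of 0.30 ± 0.10 (95% interval 0.06 to 0.54) missed the threshold (adjusted p = 0.0855). Across the alternatives the adjusted p ran from 0.0533 to 0.226. *Nmnat1* overlaps *Lzic* and *Tmem274* in the annotation, and *Lzic* had a log2 fold change of 0.10 (adjusted p = 0.67).

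*Nmnat3* (gene 74080, chr9:98287433-98420533) encodes the mitochondrial NMNAT. Its level was 12.4, 15.3 and 13.6 CPM in WT and 13.5, 14.1 and 13.9 CPM in Sirt6 KO, and all 3 Sirt6 KO libraries lay inside the WT range. Both means were 13.8 CPM. The difference on the log2 scale had a 95% interval of -0.27 to 0.28 (adjusted p = 0.98). *Nmnat2* (gene 226518, chr1:152954781-153119266), the Golgi and axonal form that is best known from neurons, was counted 18, 16 and 10 times in WT and 5, 9 and 13 times in Sirt6 KO. At such counts the log2 fold change of -0.88 ± 0.56 had a 95% interval of -2.19 to 0.42 (adjusted p = 0.293). The summed level of 6 Schwann cell and nerve markers ran from 11.2 to 29.7 CPM in WT and from 9.45 to 19.0 CPM in Sirt6 KO, and its part in the *Nmnat2* values was not tested.

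TPM values, which are scaled to transcript length and to a fixed sum per library, allow the 3 NMNAT genes to be set against each other within a library. *Nmnat1* made up 71.9%, 68.3% and 70.3% of their summed TPM in the WT libraries and 75.7%, 72.8% and 74.3% in the Sirt6 KO libraries. *Nmnat3* made up 27.8%, 31.4% and 29.6% in WT and 24.3%, 27.1% and 25.5% in Sirt6 KO. The *Nmnat1* share averaged 70.1 ± 1.79% in WT and 74.2 ± 1.44% in Sirt6 KO (n = 3 each; exact two-sided permutation p = 0.1, the smallest possible). *Nmnat2* took a mean of 0.288% in WT and 0.134% in Sirt6 KO (exact permutation p = 0.200). The nuclear form was thus the most abundant NMNAT transcript in all 6 libraries. The shares of *Nmnat1* and *Nmnat3* did not overlap between the groups. Because *Nmnat2* took so little, these shares nearly mirror each other and are not separate results. In TPM itself, *Nmnat1* stood at 35.5, 34.7 and 29.0 in WT and at 40.7, 34.8 and 37.0 in Sirt6 KO. Its groups thus overlapped on this scale, unlike in CPM.

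**Figure D2:**
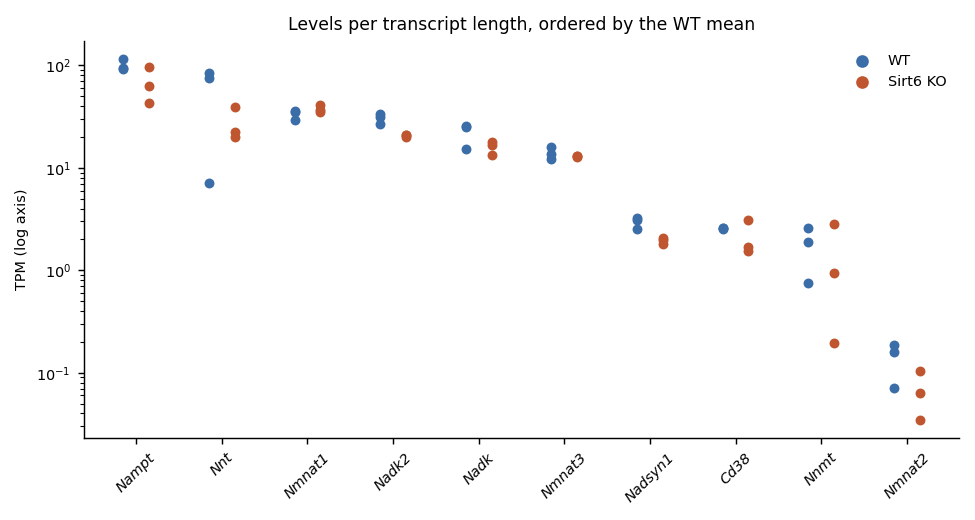
TPM (log axis) of the 10 enzyme genes in the 3 WT and 3 Sirt6 KO libraries, 1 point per library, ordered by the WT mean from *Nampt* at 101 to *Nmnat2* at 0.139. The single low WT point of *Nnt* is WT replicate 3.

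On the same scale per transcript length, *Nampt* was the highest of the 10 enzymes in WT, at 101 ± 13.0 TPM (SD, n = 3), followed by *Nnt* at 55.2 ± 41.9, *Nmnat1* at 33.1 ± 3.58 and *Nadk2* at 30.6 ± 3.31 TPM. *Nadk* followed at 22.0 ± 5.84 and *Nmnat3* at 14.0 ± 1.90 TPM. *Nadsyn1* at 2.97 ± 0.388, *Cd38* at 2.55 ± 0.0364, *Nnmt* at 1.74 ± 0.919 and *Nmnat2* at 0.139 ± 0.0605 TPM were the lowest. In this order the WT ranges of *Nnt* and *Nmnat1*, of *Nmnat1* and *Nadk2*, of *Nadk* and *Nmnat3*, of *Nadsyn1* and *Cd38* and of *Cd38* and *Nnmt* overlapped. Those of the remaining neighbours did not.

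*Nadk2* (gene 68646, chr15:9071260-9110496) encodes the NAD kinase of mitochondria, the source of NADP in that compartment. It was counted 2412, 2602 and 2976 times in WT and 2067, 2363 and 2136 times in Sirt6 KO. These counts gave 48.4, 55.2 and 51.9 CPM in WT and 35.3, 39.0 and 38.8 CPM in Sirt6 KO, so the highest Sirt6 KO library lay well under the lowest WT library. The mean fell from 51.8 ± 3.42 to 37.7 ± 2.06 CPM, a log2 fold change of -0.46 ± 0.10 (95% interval -0.69 to -0.22; adjusted p = 0.0272) or a change of -27.3%. By its p-value *Nadk2* ranked 1140 among the genes tested. The call held without WT replicate 3 (adjusted p = 0.0195) and was lost without any of the other 5 libraries, at an adjusted p of 0.0646 without WT replicate 1, 0.096 without WT replicate 2, and 0.111, 0.0679 and 0.108 without Sirt6 KO replicate 1, 2 and 3. The estimate stayed between -0.50 and -0.41 in those fits. After removal of the GC trend it was -0.26 (adjusted p = 0.149).

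*Nadk* (gene 192185, chr4:155562381-155591001), the cytosolic NAD kinase, stood at 31.8, 34.6 and 24.0 CPM in WT and at 25.9, 20.4 and 25.4 CPM in Sirt6 KO. WT replicate 3 lay inside the Sirt6 KO range. The log2 fold change was -0.33 ± 0.17 (95% interval -0.72 to 0.05; adjusted p = 0.194), and without WT replicate 3 it was -0.47 (adjusted p = 0.0361). Both kinases therefore had estimates of the same sign, and the test passed for the mitochondrial form with all libraries in the fit. The difference between these estimates was not tested.

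*Nnt* (gene 18115, chr13:119335527-119409257) encodes the transhydrogenase of the inner mitochondrial membrane. It was counted 5955, 6631 and 766 times in WT and 2416, 4609 and 2111 times in Sirt6 KO. The levels were 119, 141 and 13.4 CPM in WT and 41.3, 76.0 and 38.3 CPM in Sirt6 KO. WT replicate 3 was the lowest of the 6 libraries and the other two WT libraries were the highest, so that *Nnt* varied by 10.5-fold within WT and by 1.98-fold within Sirt6 KO. A range as wide within WT (3.39 on the log2 scale, beside a median of 0.47) was seen in 1.90% of all genes, or 262. The log2 fold change was -0.81 ± 0.72 (95% interval -2.50 to 0.88; adjusted p = 0.452). Without WT replicate 3 it was -1.32 (adjusted p = 0.0212). The C57BL/6J substrain is known to carry a deletion of several *Nnt* exons that other substrains lack, and the labels name C57BL/6 without a substrain. A count over the whole gene does not separate those exons, and a part of the allele in these values was not tested.

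The library pattern of *Nnt* was seen in slow fiber genes as well. WT replicates 1 and 2 and Sirt6 KO replicate 2 stood above the other three libraries for 8 of 8 slow fiber markers. The summed level of those markers was 7302, 8166 and 1389 CPM in WT and 1672, 4793 and 2071 CPM in Sirt6 KO. The largest part of this sum in every library was *Myh2*, the type IIa myosin gene, which the paper lists among slow fiber genes. *Myh2* stood at 3732, 5223 and 1256 CPM in WT and at 1313, 2694 and 1571 CPM in Sirt6 KO. The type I gene *Myh7* stood at 1138, 958 and 21.7 CPM in WT and at 100.1, 720.3 and 163 CPM in Sirt6 KO. The same library order was found for 5 of 5 erythroid markers, which summed to 297, 291 and 46.6 CPM in WT and 109.8, 181 and 80.2 CPM in Sirt6 KO. Among the 10 enzymes it was found for *Nnt* and *Nnmt* (20.0%), and among all genes tested for 10.4%. None of the slow fiber or erythroid markers passed the test between the groups. Of the other marker lists, 8 muscle fiber genes summed to 133584 to 205805 CPM in WT and 190088 to 217172 CPM in Sirt6 KO, 6 endothelial genes to 169.8 to 351 and 188 to 203 CPM, and 5 fibroblast genes to 468 to 864 and 547 to 576 CPM. The 4 smooth muscle and pericyte genes summed to 385, 454 and 189 CPM in WT and to 177, 189.9 and 153 CPM in Sirt6 KO. Of these 4, the pericyte gene *Rgs5* fell by 1.10 on the log2 scale (SE 0.30; adjusted p = 0.0481). The call of *Rgs5* held without WT replicate 3, was lost without each other library (adjusted p up to 0.164) and was lost without the GC trend (-0.82, adjusted p = 0.128). The part of pericytes in the falls reported here was not tested. Whether the amount of slow fiber sampled had a part in the *Nnt* and *Nnmt* values was not tested.

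**Figure D3:**
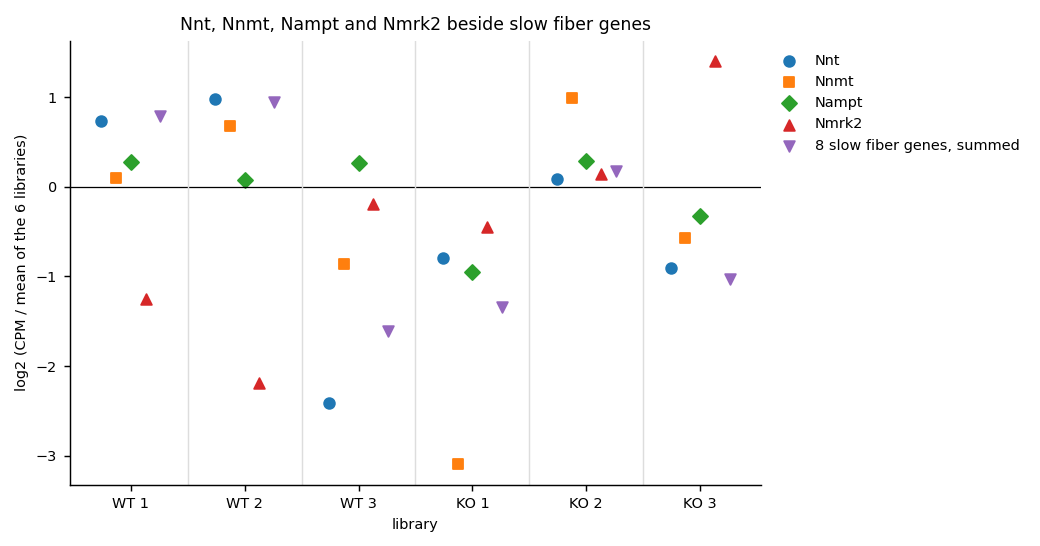
Log2 of CPM over the mean of the 6 libraries for *Nnt*, *Nnmt*, *Nampt*, *Nmrk2* and the sum of 8 slow fiber genes, 1 point per library. The slow fiber sum includes the type IIa gene *Myh2* as its largest part. *Nnt* and the slow fiber sum were both high in WT 1, WT 2 and Sirt6 KO 2 and low in the others, whereas *Nmrk2* was lowest in WT 1 and WT 2 and highest in Sirt6 KO 3.

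*Nnmt* (gene 18113, chr9:48538002-48607655) encodes the methyltransferase that removes nicotinamide from salvage, and it is known mainly from liver and fat. It was counted 39, 55 and 23 times in WT and 5, 88 and 27 times in Sirt6 KO. The levels were 0.782, 1.17 and 0.401 CPM in WT and 0.0854, 1.45 and 0.490 CPM in Sirt6 KO, where the libraries spanned 17.0-fold and held both the lowest and the highest value. The log2 fold change was -0.20 ± 0.85 (95% interval -2.18 to 1.77; adjusted p = 0.886). It changed sign without WT replicate 2 (0.20) or without Sirt6 KO replicate 1 (0.32), and no direction can be read from it. The 7 adipocyte markers summed to 186, 259 and 124 CPM in WT and to 163, 298 and 192 CPM in Sirt6 KO. The highest sum was in the library where *Nnmt* was highest. Most of the sum was *Fabp4*, which spanned 1.71-fold over the 6 libraries. *Plin1* spanned 29.9-fold, *Cfd* 29.2-fold, *Adipoq* 24.8-fold, *Cidec* 17.3-fold and *Retn* 15.5-fold, and *Lep* had no count in some libraries. The part of adipocytes in the *Nnmt* values was not tested.

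*Cd38* (gene 12494, chr5:43868809-43912374) encodes an NAD glycohydrolase of the cell surface that is abundant in immune cells. It stood at 3.23, 3.44 and 3.93 CPM in WT and at 4.48, 2.57 and 2.34 CPM in Sirt6 KO, so the WT libraries lay within the span of the Sirt6 KO libraries. The log2 fold change was -0.17 ± 0.28 (95% interval -0.82 to 0.48; adjusted p = 0.69), and it turned to 0.12 when the GC trend was removed. Macrophage markers (6 genes) summed to 25.6 to 54.9 CPM in WT and 32.1 to 40.5 CPM in Sirt6 KO.

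The enzymes that spend NAD on ADP-ribosylation formed a list of 21 genes, of which 19 were tested. In this list 1 gene fell (*Parp3*), 0 rose and 18 did not pass, beside 16.2% of all genes called, and the median log2 fold change was 0.03. *Parp3*, a polymerase of DNA break repair, fell from 41.7 ± 1.58 to 30.3 ± 3.60 CPM, by 0.46 on the log2 scale (SE 0.12; adjusted p = 0.0376). Its call held without WT replicate 3 or Sirt6 KO replicate 2 and was lost in the other 4 leave-one-out fits, at an adjusted p of up to 0.146. *Parp1*, the main polymerase activated by DNA damage, stood at 67.4, 67.8 and 89.6 CPM in WT and at 105, 95.7 and 106 CPM in Sirt6 KO. The groups did not overlap, and its log2 fold change of 0.45 ± 0.14 missed the threshold (adjusted p = 0.0677). It passed without WT replicate 3 (0.60, adjusted p = 0.00747), and under DESeq2 (adjusted p = 0.0237) and both limma fits.

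Of the 7 sirtuin genes, 1 rose (*Sirt6* itself), 1 fell (*Sirt1*) and 5 did not pass, again beside 16.2% of all genes. *Sirt1*, the nuclear deacetylase whose promoter is printed above, stood at 17.7, 17.5 and 19.0 CPM in WT and at 9.54, 10.1 and 12.5 CPM in Sirt6 KO. All Sirt6 KO libraries were lower than all WT libraries, and the log2 fold change was -0.75 ± 0.14 (adjusted p = 0.0178). The call held without WT replicate 3, and was lost without each other library (adjusted p from 0.0566 to 0.0713) and after removal of the GC trend (-0.56, adjusted p = 0.0521).

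Carriers, phosphatases and repair enzymes of NAD and NADP formed a list of 11 genes, all tested, in which 1 rose (*Carkd*), 1 fell (*Noct*) and 9 did not pass, beside 16.2% of all genes called. The median log2 fold change was 0.39. *Noct*, a phosphatase that returns NADPH to NADH and a known clock output gene, stood at 114, 132 and 105 CPM in WT and at 22.9, 46.1 and 34.0 CPM in Sirt6 KO. It fell by 1.77 on the log2 scale (SE 0.25; adjusted p = 0.0132), further than any of the 10 enzyme genes. Its call was lost without Sirt6 KO replicate 1 (adjusted p = 0.0589) or 3 (adjusted p = 0.0723). *Carkd*, which repairs hydrated NADH and NADPH and is now named *Naxd*, rose from 24.5 ± 2.76 to 33.4 ± 2.51 CPM, a log2 fold change of 0.44 ± 0.12 (adjusted p = 0.047). This call held without WT replicate 3 and was lost without each other library (adjusted p up to 0.159) and without the GC trend (0.28, adjusted p = 0.173). *Slc25a51*, the carrier that brings NAD into mitochondria, stood at 81.1 ± 4.78 CPM in WT and 73.7 ± 3.94 CPM in Sirt6 KO, and its log2 fold change was -0.14 ± 0.10 (adjusted p = 0.365).

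**Figure D4:**
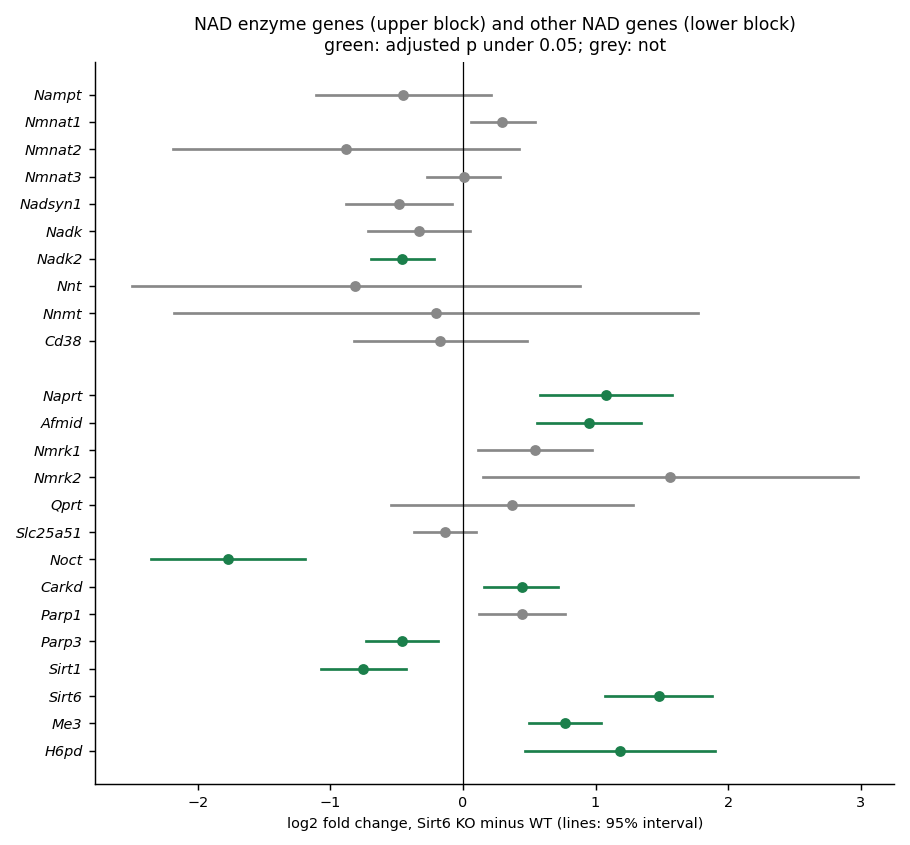
Log2 fold change of Sirt6 KO over WT with its 95% interval for the 10 enzyme genes (upper block) and 14 other NAD genes (lower block), green where the adjusted p was under 0.05. In the upper block the interval of *Nadk2* is green and those of *Nnt* and *Nnmt* are the widest along with *Nmnat2*.

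Over the 6 lists of other NAD genes, 62 of 70 genes were tested, of which 6 rose, 3 fell and 53 did not pass, with a median log2 fold change of 0.03. Over all genes tested 7.85% rose and 8.39% fell, so the share called in these lists was near the background. The groups did not overlap for 20 of the 62, beside 40.0% of all genes. These counts stand beside 1 fall, 0 rises and 9 genes that did not pass among the 10 enzymes, and the difference between the lists was not tested.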

How the data were processed

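RNA-seq of gastrocnemius muscle from 3 WT and 3 Sirt6 KO mice was analysed, with 1 library per animal and groups taken from the labels. The authors deposited whole-number read counts per gene without normalization, together with FPKM values (scaled to length and library size) and TPM values (scaled to a fixed sum per library), in 1 table of 24532 genes on mm10. The submitters' processing notes name HISAT2 2.1.0, Bowtie2 2.3.4.1 and StringTie 2.1.3b, whereas the reporting summary names STAR. The labels name a stranded TruSeq kit and the methods another, and whether counting used strand is not given in the sources used here. The methods and the reporting summary also name different *Sirt6* flox lines.

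Counts were tested in R 4.3.3 with edgeR 4.0.16: filterByExpr (13801 genes kept), TMM factors (0.909 to 1.11), a quasi-likelihood fit on group and Benjamini-Hochberg adjustment at 0.05 over all genes tested. The common biological coefficient of variation was 24.1%. Alternatives were DESeq2 1.42.0, its size factors, other filters, limma 3.58.1 on quantile-normalized log2(FPKM + 1 or 0.1), a replicate block, removal of a lowess trend (span 0.3) over GC content known for 96.2% of genes tested, and leaving out each library. On counts simulated for this comparison over 13801 genes, edgeR recovered 98% of 200 genes changed by 2 on the log2 scale, with 7.55% false calls. The simulation gave every gene the same dispersion and held no GC trend. It therefore does not show how often smaller changes in these libraries are found or falsely called. TPM served to set genes beside each other.

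The enzymes, the 6 other NAD lists and the marker lists were chosen with earlier results of these data known. The text names the enzymes, *Nmrk1*, *Nmrk2*, *Naprt*, *Qprt*, *Slc25a51*, *Parp1*, *Sirt1* and *Sirt6*, and up to 4 more genes per list with an adjusted p under 0.05; overlapping genes, *Rgs5* and genes named as untested, at 0 or in observations were chosen after their values were seen. Coordinates and promoters are from RefSeq on GRCm38.p6, and 24462 of the genes matched by identifier (99.7%). Of the 10 marker lists, that of lymphocytes is not reported here.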

Additional observations from a re-analysis of the deposited data

How the results depend on the processing

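With 1 enzyme gene of 10 called in the analysis as reported, 0 were called after the GC trend was removed, and 0 to 3 when single libraries were left out (3 without WT replicate 3, namely *Nadk*, *Nadk2* and *Nnt*). The count past 2-fold with unadjusted p under 0.05 was 0 and went from 0 to 1 in those fits. Of the other NAD genes 9 were called, against 14 by DESeq2 and 0 to 21 with a library left out, and of all genes 2242, against 3531 by DESeq2, 963 without the GC trend and 8 to 4582 with a library left out. Fits with fewer libraries have fewer degrees of freedom. The sign changed for *Nmnat3* without the GC trend (-0.13) and on leaving out libraries (-0.06 to 0.09), for *Nnmt* on leaving out libraries (-1.43 to 0.32) and for *Cd38* without the GC trend (0.12), and the cause was not tested. Estimates of the enzymes otherwise kept their sign in the 15 settings; 134 of their values kept side and sign, 6 lost the call, 2 gained it and 5 changed sign. For 14 other named genes 158 values kept both, 42 lost a call, 9 gained one and 0 changed sign. *Nmnat2* was not tested with at least 10 counts in every library or with FPKM above 1, nor *Nnmt* with at least 10 counts. The *Nmnat1* share in WT stayed between 69.3% and 71.1%.

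Same-numbered libraries correlated at -0.150, 0.359 and 0.238 in their deviations from the group means. Between differently numbered libraries the correlation ran from -0.427 to 0.278. With 3 libraries per group, whose deviations are tied together by the group mean, these values cannot show whether the numbers pair the animals. The labels also give each library another number, which differs between the WT and Sirt6 KO libraries of the same replicate number. A block on the replicate number thus follows the titles alone, and no known pairing of animals stands behind it. With the replicate number as a block, 1 of the enzymes, 9 of the other NAD genes and 1922 of all genes were called. *Nmrk2* gained a call with it (1.58, adjusted p = 0.0349), and *Carkd* (0.45, adjusted p = 0.0592) and *Parp3* (-0.47, adjusted p = 0.0576) lost theirs.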

Other observations

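Enzymes that form NADPH from NADP, the product of the NAD kinases, were a list of 8 genes, all tested. Of these, 2 rose, 0 fell and 6 did not pass, beside 7.85% of all genes tested that rose and 8.39% that fell. The median log2 fold change was -0.04. *Me3*, the mitochondrial malic enzyme, rose from 49.0 ± 4.02 to 83.6 ± 7.19 CPM (SD, n = 3), by 0.77 on the log2 scale (edgeR adjusted p = 0.0132). Its call was lost without Sirt6 KO replicate 1 (adjusted p = 0.0608) or 3 (adjusted p = 0.0723). *H6pd*, the dehydrogenase of the endoplasmic reticulum, stood at 66.5, 38.1 and 93.7 CPM in WT and at 174, 126 and 149 CPM in Sirt6 KO, a log2 fold change of 1.18 ± 0.31 (edgeR adjusted p = 0.0415). It kept its call without WT replicate 3, lost it without each other library (adjusted p up to 0.129) and lost it without the GC trend (0.95, adjusted p = 0.0927). *Idh2*, the mitochondrial isocitrate dehydrogenase, named after its values were seen, stood at 377, 474 and 81.9 CPM in WT and at 75.3, 282 and 124 CPM in Sirt6 KO, with the library order of *Nnt* (edgeR adjusted p = 0.345).

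The shuttles that pass electrons of cytosolic NADH to mitochondria, together with the lactate dehydrogenase genes *Ldha* and *Ldhb*, were a list of 11 genes, all tested. Of these, 0 were called by edgeR, beside 16.2% of all genes tested. An unadjusted p under 0.05 was found for 0 of the 11, beside 4875 of the 13801 genes tested. In 7 of the 11 (63.6%, beside 10.4% of all genes tested) WT replicates 1 and 2 and Sirt6 KO replicate 2 stood above the other three libraries, among them *Mdh1*, *Got1* and *Slc25a12* of the malate-aspartate shuttle. *Ldhb*, the heart form of lactate dehydrogenase and not a shuttle gene, was also among these 7. It stood at 335, 381 and 36.3 CPM in WT and at 44.5, 276 and 76.9 CPM in Sirt6 KO. *Gpd1* and *Gpd2* of the glycerol phosphate shuttle had the opposite order, which 8.17% of all genes had. These genes were singled out after their values were seen, and the order follows libraries and not the labelled groups.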
